A study of Mus musculus with 4 samples.

Results

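The growth hormone, STAT5 and IGF axis of the liver was examined as 10 genes, namely Ghr, Stat5a, Stat5b, Socs2, Cish, Igf1, Igfals, Igfbp1, Igfbp2 and Bcl6. All probes that carry one of these names in the scanner files were taken, which gave 20 probes among the 41037 probes of the array with a value on every hybridisation. The rule itself uses no measured value, although earlier results of these arrays were known when the genes were chosen. Of the 20 probes, 17 were well above background in all 8 channels and 3 were not in any, so that every gene had at least 1 probe with signal.

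The RNA came from livers of male C57BL/6J mice, bought at 8 weeks of age and made obese by 14 weeks of high-fat diet (diet-induced obesity, DIO), which continued in all groups during treatment. Before treatment all mice were acclimatized with saline through the nose once a day. The labels give 2 weeks for this and the methods of the study a shorter time. Mice of at least 40 g received porcine GALP (galanin-like peptide), dissolved in saline with 5% α-cyclodextrin to 1 nmol, or saline, in 2 μL through the nose once a day for 11 days. The 8 GALP-treated mice were divided by their weight loss after treatment into a pool of 4 with greater weight loss and a pool of 4 with less, and RNA of the 8 saline mice was combined into the control. Each of the GALP pools was hybridised with it on 2 two-colour arrays of 1 slide, with GALP in Cy5 on the first array and in Cy3 on the second. Values below are log2 ratios of GALP over control, where 1 is a doubling, and errors are the SD of the 2 GALP pools (n = 2 pools).

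Growth hormone released by the pituitary binds its receptor on hepatocytes, and the receptor-bound kinase JAK2 phosphorylates the transcription factors STAT5A and STAT5B. STAT5 in turn raises transcription of Igf1 and Igfals, whose products circulate together, and of Socs2 and Cish, which damp the receptor's signal. In mice the rhythm of growth hormone release differs between the sexes and sets many of the sex differences of liver gene expression. STAT5 represses Bcl6, a transcriptional repressor that binds at many of the same places in chromatin.

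Since the axis acts through STAT5, its recognition sequence was looked up in RefSeq promoters (GRCm38.p6, 250 bases before to 50 after each start). The motif TTCNNNGAA, which reads the same on both strands, was found in 2726 of 32851 promoters of that length (8.30%). Promoters of 9 of the 10 genes were matched, and Socs2 was not. Of their 16 promoters 5 held the motif, and these belonged to Bcl6, Cish and Igfals. A match is a description of the letters and not of binding, and the other promoters simply lack these letters in this window. The windows are shown with the motif in capitals, because Bcl6 and Cish are the genes on which the results below turn. Positions are counted from the annotated start as 1.

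Cish, chr9:107296656-107296681, plus strand, motifs from positions 1 and 12: gttTTCCTGGAAagTTCTTGGAAatc
Bcl6, chr16:23981343-23981471, minus strand, motifs from positions -168, -122 and -88: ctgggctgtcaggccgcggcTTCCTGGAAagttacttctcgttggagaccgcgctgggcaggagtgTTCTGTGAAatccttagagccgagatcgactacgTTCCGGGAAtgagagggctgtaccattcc
Bcl6, other start, chr16:23988952-23988980, minus strand, motif from position -118: agcaaattagTTCTCAGAAttccagaggc
Igfals, chr17:24877598-24877626, plus strand, motif from position -236: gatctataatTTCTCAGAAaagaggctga
Igfals, other start, chr17:24878163-24878191, plus strand, motif from position -58: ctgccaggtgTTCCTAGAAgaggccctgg

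Taken over both GALP pools, no gene of the axis passed the test. The methods of the study give limits of fold and p-value for changes common to the groups but not on how many arrays they must hold, and a strict reading was applied. Calling a probe took a fold above 1.5 or below 0.75 in both pools, and on all 4 arrays 1 direction and a p-value under 0.01 from the error model of Feature Extraction, the scanner's software, which judges the 2 RNA extracts on an array and not the treatment. By this rule 0 of the 20 probes were called, beside 78 of 41037 on the whole array (0.19%). With limma on the pool ratios, an adjusted p under 0.05 was reached by 0 of the 20 probes and by 0 of all probes (0%). The smallest adjusted limma p of a probe of the axis was 0.374, at a Stat5b probe not well above background in any channel. It was also the smallest of any probe on the array. An unadjusted limma p under 0.05 was found for 5 of the 20, of which 4 had signal, beside 11.6% of all probes. With 2 pools and a single control pool the limma test had little power, and a missed threshold does not show that a gene was unchanged. Among the 17 probes with signal the mean log2 ratio ran from -0.50 to 0.32, and it lay within 0.25 of 0 for 12. The median over the 10 genes, each at its brightest probe, was -0.03, with 0.09 in the greater and 0.01 in the less weight loss pool, beside 0.00 and 0.00 over the 23364 probes of the array with signal in any channel.

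**Figure D1:**
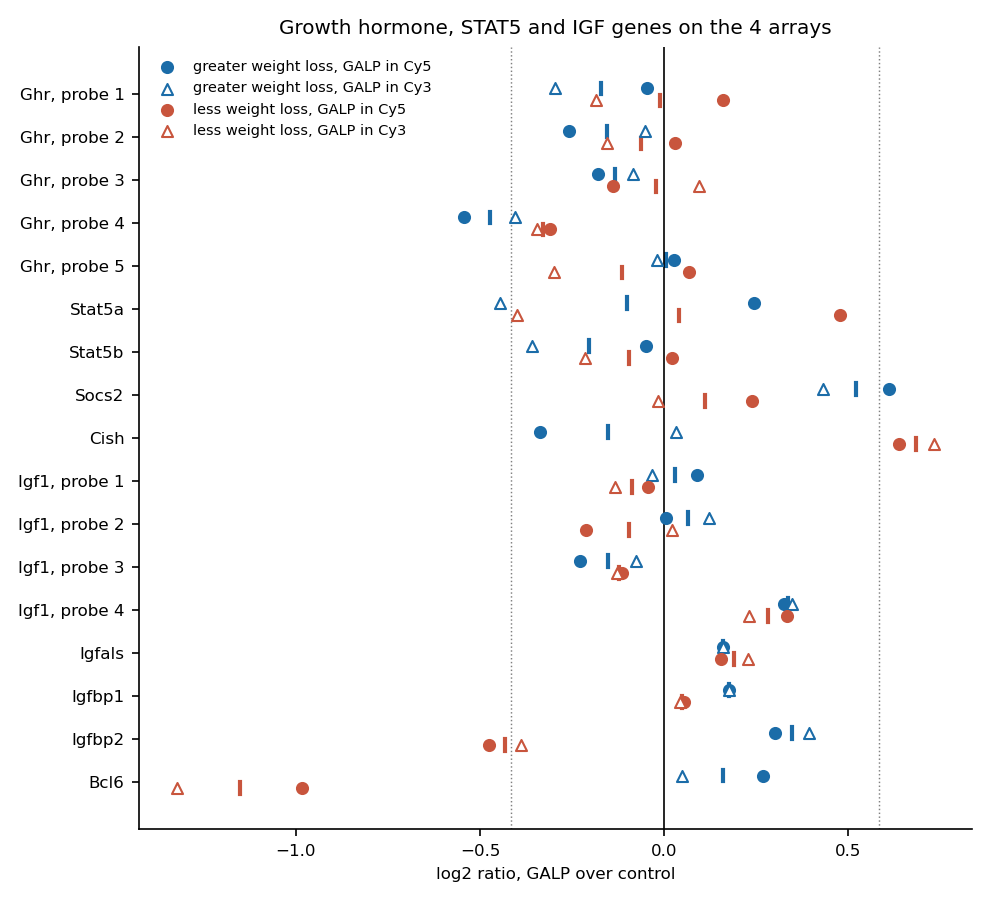
The plot shows the log2 ratio of GALP over control for the 17 probes with signal on each of the 4 arrays, with filled circles for GALP in Cy5, open triangles for GALP in Cy3, short bars for the pool means and dotted lines at the folds of 1.5 and 0.75. Bcl6, Cish and Igfbp2 are the genes whose blue points (greater weight loss) and red points (less weight loss) stand far apart, and Stat5a is the gene whose circles and triangles do.

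The pools differed from each other at Bcl6, Cish and Igfbp2. Taking the pool with less weight loss alone, by the same fold, p-value and direction on its 2 arrays, 1 of the 20 probes was called lower (Bcl6), beside 0.366% of all probes, and 1 was called higher (Cish), beside 0.234%. In the greater weight loss pool 0 of the 20 were called, beside 0.692% of all probes in either direction. The division by weight loss was made after treatment, and there is 1 pool a side, so the difference between the pools has no replicate of its own and was not tested.

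Bcl6 encodes a transcriptional repressor of the zinc finger type and is more abundant in male than in female mouse liver. Its probe (NM_009744) lies on chromosome 16 at 23965160 to 23965219, minus strand, in the mm9 build that the files use. The processed signal in the control channel was 2240 and 2057 on the arrays of the greater weight loss pool and 1935 and 2355 on those of the other pool. The GALP channel gave 2698 and 2128 with greater weight loss but 979 and 941 with less. The GALP signals of the less weight loss pool were thus below all other Bcl6 signals on the slide, control and GALP. The GALP signals of the pools did not overlap, and the share of all probes for which this holds was not counted. The log2 ratios were 0.27 and 0.05 with greater weight loss, against -0.98 and -1.32 with less, where the fold was 0.450 and the Feature Extraction p-values were 1.07e-05 and 2.59e-08. Over both pools the mean was -0.50 ± 0.93, smaller than its SD, with an adjusted limma p of 0.776. The value of this mean rests on 1 pool, since it is 0.16 without the pool with less weight loss and -1.15 without the pool with greater. In whole tissue, fewer cells that express a gene and less RNA per cell cannot be told apart.

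Cish encodes a SOCS-family protein that is induced by STAT5 and dampens cytokine receptor signals. The Cish probe (NM_009895) lies on chromosome 9 at 107204196 to 107204255, plus strand (mm9), and the promoter printed above holds a pair of motifs at its start, a number of 2 or more that 0.457% of all promoters reach. Control signals were 497 and 388 on the first pair of arrays (greater weight loss) and 504 and 410 on the second (less). GALP signals were 394 and 397 with greater weight loss and 783 and 682 with less. As for Bcl6, the GALP channel of the less weight loss pool stood apart from all other channels, here above them, and the share of all probes for which this holds was not counted. The log2 ratios were -0.34 and 0.03 in the first pool and 0.64 and 0.73 in the second, where the fold was 1.61 and the Feature Extraction p-values were 0.00293 and 0.000815. The mean of 0.27 ± 0.59 was within the spread of the pools (adjusted limma p 0.833), and it is -0.15 without the pool with less weight loss. With normexp background correction and loess in place of the software's own steps, the ratio of the less weight loss pool was 0.40 and no longer passed the fold.

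Igfbp2 encodes a binding protein that carries IGFs in blood, and its liver expression is known to rise in fasting and to fall in obesity. Its probe (NM_008342), shown here because the gene's sign differs between the pools, lies on chromosome 1 at 72898677 to 72898736, plus strand (mm9).

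Igfbp2 probe: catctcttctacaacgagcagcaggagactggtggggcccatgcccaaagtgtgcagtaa

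The log2 ratios of Igfbp2 were 0.30 and 0.39 with greater weight loss and -0.47 and -0.39 with less. Control signals ran from 2452 to 3166, GALP signals were 3535 and 3221 with greater weight loss and 2279 and 2216 with less. The signals of the GALP channel lay above all control signals in one pool and below all of them in the other. How many of all probes do so was not counted. Neither pool was called, as the Feature Extraction p-values ran from 0.0230 to 0.142, and the fold was 1.27 in the first pool and 0.741 in the second. The mean over pools was -0.04 ± 0.55, in which the opposite values of the pools cancel.

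**Figure D2:**
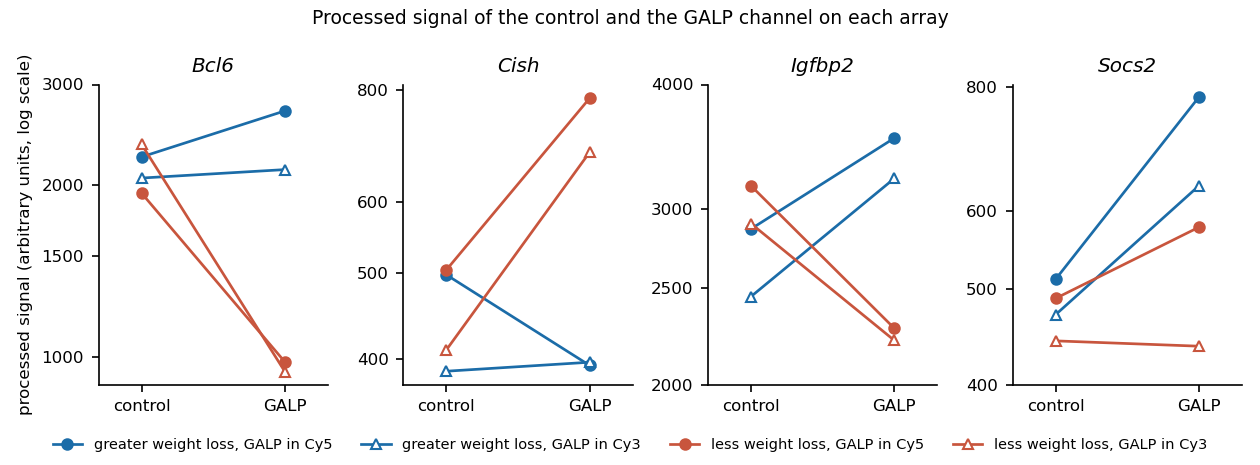
Each panel shows, on a log scale, the processed signal of 1 gene in the control channel and the GALP channel, joined by a line for each array (blue for greater, red for less weight loss, filled for GALP in Cy5). Both red lines fall for Bcl6 and Igfbp2 and rise for Cish, and both blue lines rise for Bcl6, Igfbp2 and Socs2.

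The difference between the pools can be read within each dye orientation, where a bias of the dyes cancels. For Bcl6 the less weight loss pool was below the greater one, with log2 differences (less minus greater) of -1.25 with GALP in Cy5 and -1.37 with GALP in Cy3. The corresponding values were -0.78 and -0.78 for Igfbp2 and 0.97 and 0.70 for Cish. For Socs2 they were -0.37 and -0.45. A separation of more than 1.5-fold, the same way in both orientations, was reached by 3 of the 17 probes with signal, beside 1.65% of the 15713 probes with signal on every array. This limit was set after the values were seen. The 3 genes did not move one way, since Bcl6 and Igfbp2 were lower and Cish higher in the pool with less weight loss.

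**Figure D3:**
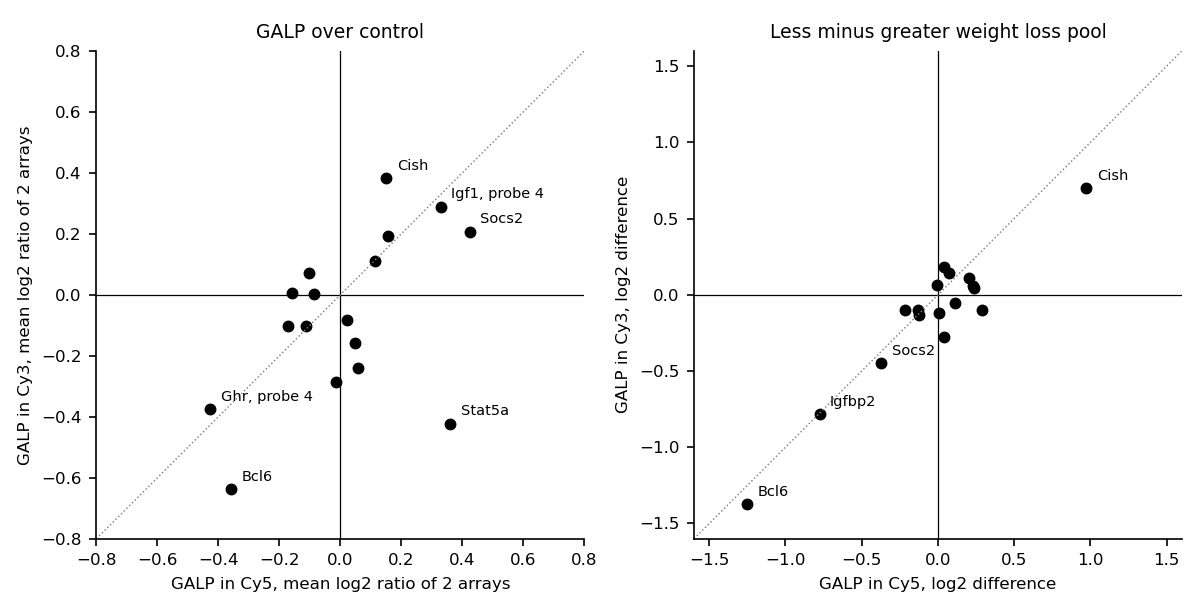
The left panel plots, for the 17 probes with signal, the mean log2 ratio of GALP over control on the arrays with GALP in Cy3 against that with GALP in Cy5, and the right panel plots the log2 difference of the less minus the greater weight loss pool in the same way, with a dotted line where both orientations are equal. Stat5a lies far from the line on the left, with 0.36 and -0.42, while Bcl6, Igfbp2 and Cish stand apart from the other probes near the line on the right.

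Skeletal muscle markers differed between the same pools. All 5 of 5 muscle markers were well above background in every control channel, and their summed processed signal was 1363 to 1616 in the control channels. It was 2275 and 1678 in the GALP channels of the greater weight loss pool but 263 and 325 in those of the less weight loss pool. There the log2 ratios of the 5 genes lay between -2.88 and -1.62, and 4 were called lower, beside 0.366% of all probes. Only 2 of the 5 were well above background in both of these GALP channels, 2 in 1 of them and Myh4 in neither, so part of these ratios are limits. Bcl6 was low in the same channels. The part of muscle RNA in the values of Bcl6, Cish and Igfbp2 was not tested. Of the labelled tissue, 7 of 7 hepatocyte markers with a probe were well above background in all control channels, with ratios between -0.56 and 0.29 in the pools. Of other cell types the listed markers, 5 of each, had median ratios in the pools of 0.13 and 0.16 for Kupffer cells, -0.03 and 0.01 for sinusoidal endothelium, 0.18 and 0.13 for stellate cells and -0.18 and 0.00 for bile duct, of which Epcam was at background in every channel. Single markers moved more, as the Kupffer cell gene Marco was called higher in both pools (1.05 and 0.69), beside 0.0585% of all probes. In the greater weight loss pool Col1a1 was called higher (0.83) and the bile duct keratin Krt19 lower (-0.82), beside 0.692% of all probes in either direction.

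Ghr, the growth hormone receptor, has 5 probes with signal, all on chromosome 15, minus strand, numbered here from the brightest to the dimmest. Probe 3 spans 3283509 to 3290961 on mm9, 7453 bases for a probe of 60, and therefore joins exons of the spliced transcript. It is printed because it reads spliced receptor mRNA.

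Ghr probe 3: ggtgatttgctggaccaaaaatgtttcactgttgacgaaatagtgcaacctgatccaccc

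Its ratios were -0.18 and -0.09 with greater weight loss and -0.14 and 0.10 with less, with a mean of -0.08 ± 0.08. Probes 1, 2 and 5 had means of -0.09 ± 0.11, -0.11 ± 0.07 and -0.06 ± 0.08, and on single arrays they ran from -0.30 to 0.16. Probe 4 stood apart. It matches the cDNA clone AK034547 (3275624 to 3275683), and its ratios were -0.54 and -0.41 in the greater weight loss pool, -0.31 and -0.35 in the other, lower on all 4 arrays, with a mean of -0.40 ± 0.10. It was not called, having a Feature Extraction p-value of 0.0116 at the lowest, and its adjusted limma p was 0.423 (0.0455 unadjusted). The other 4 probes of the gene had means between -0.11 and -0.06.

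Stat5a and Stat5b encode the paired transcription factors that the receptor activates, and Stat5b is known as the main form of hepatocytes. Stat5a (NM_011488, chromosome 11, 100746144 to 100746203) had ratios of 0.24 and 0.48 on the arrays with GALP in Cy5 and of -0.45 and -0.40 on those with GALP in Cy3. Its sign followed the dye in both pools, and the mean of -0.03 ± 0.10 comes from opposite values that cancel. Over the 15713 probes with signal on every array, ratios of the 2 pools had Pearson correlations of 0.41 and 0.32 within a dye orientation. Across orientations these were 0.06 and 0.02. Between the dye-swapped arrays of a pool the correlation was 0.48 with greater and 0.24 with less weight loss. The Stat5b probe with signal (NM_011489, chromosome 11, 100642099 to 100642158) had -0.05 and -0.36 with greater weight loss and 0.02 and -0.21 with less, a mean of -0.15 ± 0.08. It too was lower where GALP was in Cy3. A second Stat5b probe had ratios from 0.55 to 1.04, but its processed signals were 11.3 to 28.8 and not well above background in any channel, so that no fold can be given, and the third was at background in every channel as well.

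Socs2, a STAT5 target whose product limits growth hormone signalling, had ratios of 0.61 and 0.43 in the greater weight loss pool, against 0.24 and -0.02 in the other (NM_007706, chromosome 10, 94875066 to 94875125, minus strand). Control signals were 443 to 511, and GALP signals were 781, 636, 577 and 438 in the same order of arrays. The highest signals were those of the greater weight loss pool, and the lowest GALP signal was below all controls. Its fold in that pool, 1.44, was under the limit of 1.5, and 1 array of 4 had a Feature Extraction p-value under 0.01 (0.00418). The mean was 0.32 ± 0.29, with an adjusted limma p of 0.702. A second Socs2 probe was at background in all channels. The feedback genes Socs2 and Cish, which have a common inducer, thus had their higher values in different pools.

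Igf1, the main circulating product of the axis, had means between -0.14 and -0.02 at 3 of its 4 probes, all on chromosome 10, plus strand. The brightest probe (87376418 to 87376477) is printed as the one that stands for the gene.

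Igf1 probe 1: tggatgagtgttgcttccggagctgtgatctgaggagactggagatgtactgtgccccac

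Its ratios were 0.09 and -0.03 with greater weight loss and -0.04 and -0.13 with less, and control and GALP signals overlapped, with 23253 to 30170 in control and 22733 to 30725 in GALP channels. Probe 2 (87393516 to 87393575) was printed at 10 spots per array, of which 7 to 9 were free of outlier marks. Their log2 ratios had an SD of 0.04 to 0.07 within an array, whereas the 4 array means ran from -0.21 to 0.12, so arrays differed by more than spots of 1 array. Its mean was -0.02 ± 0.11. Probe 3 (87396567 to 87396626) had -0.14 ± 0.02, lower on all 4 arrays, with an adjusted limma p of 0.387.

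Probe 4 of Igf1 went the other way. It matches the cDNA clone AK050118 and lies at 87325382 to 87325441, before the others on the strand of the gene. Its ratios were 0.33, 0.35, 0.33 and 0.23, a mean of 0.31 ± 0.04 and a fold of 1.24, and it was the probe of the axis with signal that had the smallest adjusted limma p (0.374, unadjusted 0.0173). No array gave a Feature Extraction p-value under 0.01. The signals of this probe were uneven, with 442 in control and 555 in GALP on the first array and 93.7 to 167 in control and 118 to 196 in GALP on the others.

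Igfals encodes the acid-labile subunit that holds IGF-I and its binding protein in a stable complex in blood. Its ratios were 0.16 and 0.16 in the greater weight loss pool, then 0.15 and 0.23 in the other (NM_008340, chromosome 17, 25018251 to 25018310), higher on all 4 arrays by 0.18 ± 0.02, a fold of 1.13. Control signals were 692 to 809 and GALP signals 774 to 904, so that the channels overlapped although GALP was higher within every array. The adjusted limma p was 0.377 (0.0194 unadjusted) and no array passed the Feature Extraction p-value. Igfbp1 encodes an IGF-binding protein whose liver expression is suppressed by insulin. Its ratios were 0.18 and 0.18 with greater weight loss and 0.05 and 0.04 with less, with a mean of 0.11 ± 0.09 (NM_008341, chromosome 11, 7102442 to 7102501, adjusted limma p 0.702).

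**Figure D4:**
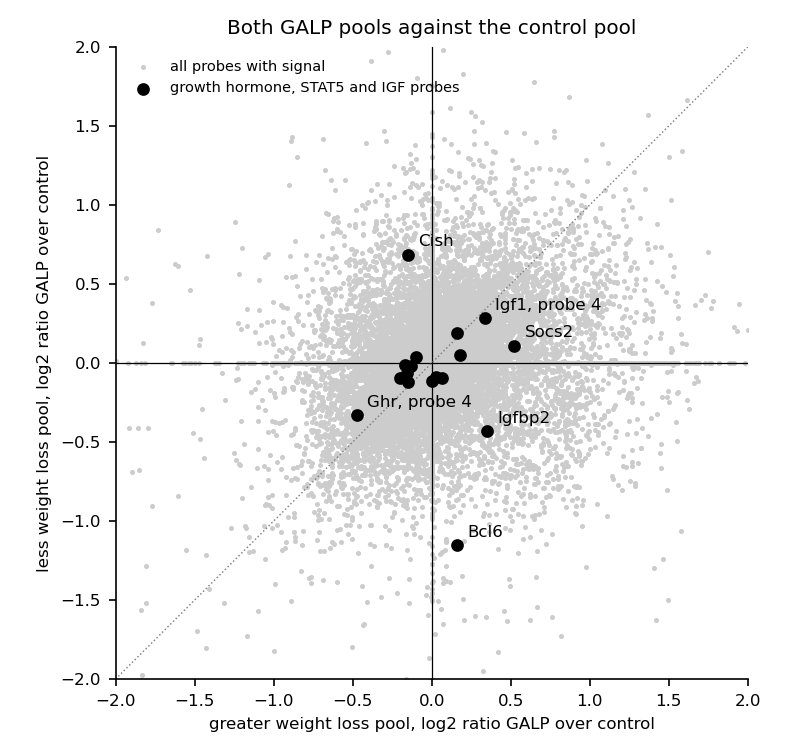
The mean log2 ratio of the less weight loss pool is plotted against that of the greater for 23364 probes with signal in any channel (grey) and the 17 probes of the axis with signal (black), with a dotted line where the pools are equal; 112 grey probes lie outside the axes of -2 to 2. Most black points lie near the origin, Ghr probe 4 and Igf1 probe 4 lie near the dotted line, and Bcl6, Cish and Igfbp2 lie away from it.

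Other genes of growth hormone and IGF action were taken from fixed lists. In the list of growth hormone signalling, 13 of 15 genes had signal, and 0 were called in both pools, beside 0.19% of all probes. Gh itself, the pituitary hormone, was not well above background in any channel. The medians were -0.01 in the greater and 0.05 in the less weight loss pool. Among genes with signal on every array, which leaves out Socs7, the 3 with the largest mean were Onecut1, a liver transcription factor that growth hormone regulates, with ratios of 0.73, 0.50, 0.27 and -0.35, Ptpn6, a phosphatase that acts on JAK2, with 0.18 ± 0.07, and Hnf4a, a master regulator of hepatocyte genes, with 0.16 ± 0.09. None of the 13 was called in either pool alone.

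Of the IGF system, 9 of 13 genes had signal and 0 were called, both over the pools together (0.19% of all probes) and in either alone. The medians were 0.16 and 0.11, in the order of greater and less weight loss, and 9 and 5 of the 9 genes were above 0. Igf2r, a receptor that clears IGF-II, had a mean of 0.26 ± 0.02. Igfbp3, the binding protein of the circulating complex, had 0.99 and 0.48 with GALP in Cy5 but -0.37 and -0.17 with GALP in Cy3, so its sign followed the dye as that of Stat5a did. Igfbp5, which binds IGFs in tissues, had 0.05 and 0.04 with greater weight loss and -0.57 and -0.55 with less. That split has the same direction as those of Igfbp2 and Bcl6.

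Many liver genes with a known sex bias follow the rhythm of growth hormone in mice, and lists of them were examined. The activity of STAT5 and BCL6 was not measured. Earlier results of these arrays were known when the lists were drawn up, so the counts are descriptions. In the male-biased list, 3 of 10 genes with signal had a probe called lower in both pools and 0 higher, beside 0.132% of all probes called lower. These were Hsd3b5, a steroid dehydrogenase, with -1.76 (greater weight loss) and -4.49 (less), Elovl3, a fatty acid elongase, with -0.89 and -1.51, and the urinary protein gene Mup1 with -0.82 and -1.07. In the less weight loss pool Hsd3b5 exceeded background in the GALP channel of 1 array out of 2, which makes its ratio there partly a limit. Mup1 belongs to a family of nearly identical genes whose transcripts can share a probe. The list's median was -0.12 in the first pool and -0.59 in the second, and 7 and 10 of the 10 genes were below 0.

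In the female-biased list, 2 of the 10 genes with signal had a probe called higher and 0 lower, beside 0.0585% of all probes called higher. Sult1e1, an estrogen sulfotransferase, had 0.77 and 1.47, and Cyp2b13, a cytochrome P450, had 0.63 and 1.23 at its called probe and 0.31 and 0.70 at its brighter one. With normexp and loess, where the Feature Extraction p-values were kept and only the ratios changed, Sult1e1 had 0.24 and 0.39 and lost its call. Cyp2b13 kept its call. Cyp2a4, another cytochrome P450, had 0.60 and 0.58 and was not called. All 10 genes were above 0 in both pools, with medians of 0.32 and 0.47. Counts for single pools were taken at the brightest probe of each gene. In the less weight loss pool alone, 5 male-biased genes were called lower, beside 0.366% of all probes, and 4 female-biased genes higher, beside 0.234%. In the greater weight loss pool 3 and 2 were, with 1 male-biased gene called higher, beside 0.692% of all probes in either direction. These 2 were Sult1e1 and Cyp17a1, and Cyp2b13, called in that pool at its dimmer probe, is not among them. These counts share the control pool with the values of Bcl6, and a link between them was not tested.

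**Figure D5:**
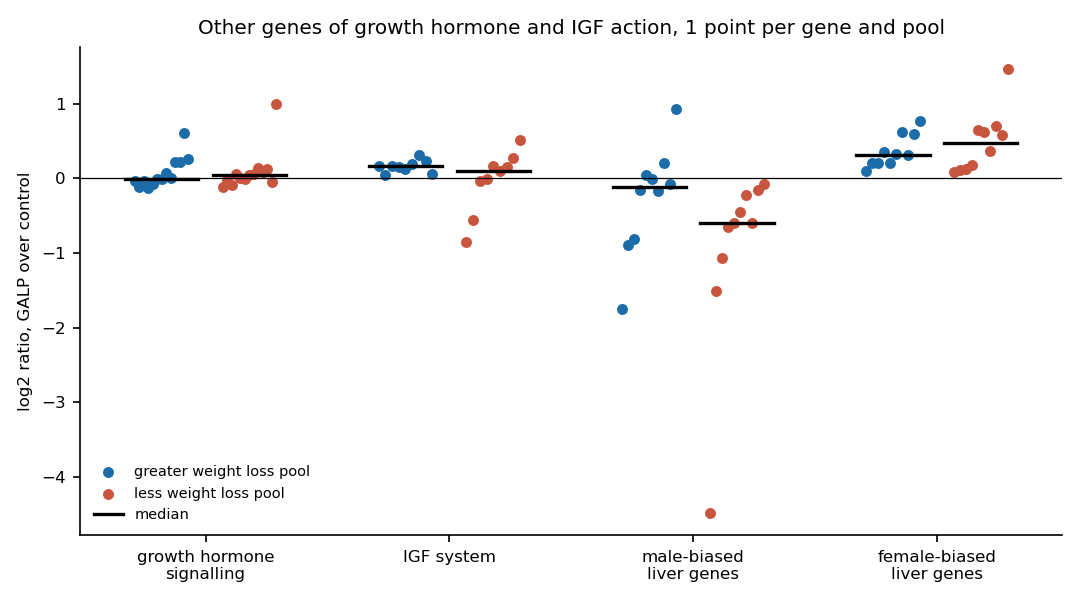
Each point is the log2 ratio of GALP over control of 1 gene at its brightest probe, in blue for the greater and red for the less weight loss pool, with black lines at the medians of the 4 lists. All female-biased genes lie above 0 in both pools and all 9 IGF genes do in the greater weight loss pool, while male-biased genes lie mostly below 0, with Hsd3b5 lowest at -4.49.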

How the data were processed

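Liver RNA pools were hybridised on 4 two-colour Agilent arrays of 1 slide. The authors' deposited log10 ratio (Cy5 over Cy3), p-value and processed intensity of each spot came, per the file headers, from Feature Extraction 12.0.3.1 with background subtraction and LOWESS dye normalization, and the labels name version 11.0.1.1. Of the spots with a ratio of 0, 95.8 to 98.4% per array had substituted signals in both channels. Ratios were turned to GALP over control on the log2 scale, outlier spots (232 to 319 of 43379 per array) were left out, spots of a probe and then the 2 arrays of a pool were averaged. The labels give the control channel a weight loss group, and the control was treated as 1 pool, whose own spread no test holds.

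For a probe with several spots the median p-value was used. limma 3.58.1 (R 4.3.3) tested the 2 pools against 0, with Benjamini-Hochberg adjustment over 41037 probes. It was tried on simulated data, as was the rule of calls. The simulated effects were far larger than the mean ratios of the 10 genes, so this trial does not show the power for them. Python 3.11.15 with pandas 2.3.3, numpy 2.4.6 and matplotlib 3.10.9 did the rest. All probes of the 10 genes are given. Of the lists, genes with a called probe and the 3 with the largest mean among genes with signal on every array are named. Members and lists were chosen with earlier results of these data known. Of the 20 probes, 15 had an accession in the RefSeq table, all 15 under the same symbol. No annotation of mm9 was used, so exons and introns are not given. The number of arrays limits the precision.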

Additional observations from a re-analysis of the deposited data

Results flagged for a closer look

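Bcl6 and Igfbp2 had both arrays of the pool with greater weight loss above 0 and both arrays of the pool with less weight loss below 0. The log2 difference of less minus greater was -1.31 for Bcl6 and -0.78 for Igfbp2. With 1 pool of each kind the differences were not tested. No group held the 4 samples needed to look for single outlying samples.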

How the results depend on the processing

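Of 20 probes of the axis, 0 were called under 9 of the 11 alternatives to the rule. Without a p-value 1 was called, a Stat5b probe not well above background in any channel, and with 1 pool left out the count was 0 to 2. For all probes, the 24 called higher and 54 lower became 9 and 26 with normexp and loess, 134 and 140 with the first dye orientation alone, 140 and 156 with the swapped one alone, 53 and 167 when 1 array of each pool was enough for the p-value, and 154 and 360 with no p-value. With 1 pool left out they were 96 to 122 higher and 150 to 162 lower. Centring the arrays, the deposited table and keeping all spots left the 24 and 54 as they were, so these settings put little to the test. With normexp and loess the Feature Extraction p-values were kept, so only fold and direction were read anew for the calls. limma at an adjusted p under 0.05 called 0 probes of the axis under all 9 alternatives, and of all probes 118 with normexp and loess, 1 over probes with signal on every array and 106 with 4 arrays, pools being random blocks.

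The pool values of single genes, chosen as results after the values were seen, kept the call of Bcl6 in the less weight loss pool under all 6 alternatives (-1.32 to -0.87). Centring, the deposited table and keeping all spots left the value at -1.15, and each dye orientation alone is 1 array of that pool. Only normexp and loess, with -0.87, changed the value by other processing. Cish in the less weight loss pool fell to 0.40 and lost its call with normexp and loess. It kept its call under the other 5, which are limited in the same way. The cause was not tested. Of the called probes of the sex-biased lists, 1 (Sult1e1) lost its call with normexp and loess. In growth hormone signalling, a dimmer Prlr probe was called without a p-value, with a p-value on 1 array per pool, or with the first orientation alone. Medians moved by more than the spread of the pools in a few settings. The median of the 10 genes was 0.0862 with the first orientation alone and -0.03 over both, with 0.0138 to 0.0935 when 1 pool was left out. Growth hormone signalling was 0.10 with the first orientation alone. The IGF system was 0.0358 with normexp and loess and 0.0353 with the swapped orientation. Female-biased genes were 0.30 with normexp and loess. With 1 pool left out, male-biased genes ran from -0.59 to -0.12 and female-biased genes from 0.32 to 0.47. The labels give no replicate numbers to pair the pools by, and GALP is paired with control within each array. Probes near background limit Stat5b and Socs2 to 1 probe each.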
